A study of Mus musculus with 4 samples.

Results

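The 10 genes described here encode NRF2 (*Nfe2l2*), its inhibitor KEAP1 (*Keap1*) and 8 antioxidant enzymes that do not belong to the glutathione family, namely *Nqo1*, *Hmox1*, *Srxn1*, *Txnrd1*, *Prdx1*, *Sod1*, *Sod2* and *Cat*. They were chosen by gene symbol from the 54920 genes listed for each library, and all 10 were found. RNA-seq was performed on ID4-EGFP+ cells sorted from testes at postnatal day 8, with 2 control and 2 *Cnot3*-cKO libraries. All mice carried floxed *Cnot3* alleles and *Id4-eGfp* and had received 4-OHT, the active form of tamoxifen, from day 1 to day 3 after birth. *Cnot3*-cKO mice also carried *Ddx4*-creER, a Cre recombinase that 4-OHT activates in germ cells, and control mice, labelled wild-type, lacked it. CNOT3 is a subunit of the CCR4-NOT complex, which shortens the poly(A) tails of mRNAs. How many mice went into each library is not given, so the p-values measure only the spread between these libraries, which may be technical.

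NRF2 is a transcription factor that KEAP1 holds in the cytoplasm and hands to a CUL3 ubiquitin ligase for degradation. Oxidants and electrophiles modify cysteines of KEAP1, and NRF2 then escapes degradation and enters the nucleus. There it pairs with a small MAF protein and activates genes that carry an antioxidant response element. NRF2 is therefore controlled mainly through the stability of the protein, which RNA-seq does not measure. Spermatogonial stem cells need a low, basal amount of reactive oxygen species (ROS) to self-renew, and the enzymes below remove ROS at successive steps. Superoxide dismutases turn superoxide into hydrogen peroxide, and catalase and peroxiredoxins remove the peroxide.

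The antioxidant response element was looked for in the promoters of these genes, since NRF2 acts through it. RefSeq promoter windows of 300 bases on GRCm38.p6, from 250 bases before to 50 bases after each start site, were at hand for 9 of the 10 genes and not for *Hmox1*. The core TGACNNNGC was searched on both strands, and it overlaps the binding motif of AP-1 factors where the bases after TGAC complete that site. Of all 32851 windows, 12.4% held the core, and of all 27025 genes with a window, 14.0% held it in at least 1. It was found in 5 of the 9 genes, *Nfe2l2*, *Srxn1*, *Prdx1*, *Txnrd1* and *Sod1*. Each match is shown on the strand of the gene with 10 bases on either side, and capitals mark the 9 bases of the core, which reads in reverse complement in all but *Nfe2l2*.
Nfe2l2, chr2:75704885-75704913, reverse strand: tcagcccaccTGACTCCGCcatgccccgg
Srxn1, chr2:152105542-152105570, forward strand: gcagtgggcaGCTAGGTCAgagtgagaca
Prdx1, chr4:116685456-116685484, forward strand: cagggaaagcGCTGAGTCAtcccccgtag
Txnrd1, chr10:82859104-82859132, forward strand: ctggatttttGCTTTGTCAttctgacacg
Sod1, chr16:90220696-90220724, forward strand: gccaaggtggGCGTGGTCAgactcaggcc
The *Txnrd1* match lay in 1 of the 3 windows of that gene. *Keap1*, *Nqo1*, *Sod2* and *Cat* had no match in their windows, which says only that these letters do not occur there. These matches are a description of the letters, and binding of NRF2 was not measured.

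The values were raw read counts per gene. Control libraries totalled 40957899 and 43378493 reads and *Cnot3*-cKO libraries 22192964 and 28019626, and none of the 10 genes was at or under 3 counts in any library. Levels are given as CPM, reads per 1000000 of the TMM-scaled library total. edgeR's quasi-likelihood test was run on the 23952 genes that passed its expression filter, with Benjamini-Hochberg adjustment. A gene "passed" at an adjusted p under 0.01, and was "called" when its fold change was also above 2. *Cnot3* itself fell from 54.4 ± 5.94 to 19.6 ± 0.521 CPM (SD, n = 2 per group), or -1.48 on the log2 scale with a standard error (SE) of 0.13 (adjusted p = 1.48e-05). The sorted cells expressed the germ cell genes *Dazl* (2024 to 2634 CPM over the 4 libraries) and *Ddx4* (703 to 754 CPM), and *Id4* was at 20.6 and 19.7 CPM in controls and 36.3 and 46.3 CPM in *Cnot3*-cKO libraries, a rise (log2 fold change 1.04). Markers of other testis cells were also present, and most of those of Sertoli cells, Leydig cells and macrophages were higher in *Cnot3*-cKO libraries, as described with the results below.

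Transcripts of NRF2 and KEAP1 did not pass in either direction, while those of 3 enzymes rose. *Nqo1* was the only one of the 10 genes that was called, with a 3.10-fold rise, and *Txnrd1* (1.41-fold) and *Hmox1* (1.34-fold) rose by less. None of the 10 passed in the lower direction. Of all tested genes, 6.21% passed as higher and 4.70% as lower, and 4.03% were called higher. The median log2 fold change of the 10 genes was 0.19, against 0.01 for all tested genes. Leaving out control replicate 1 gave 0.12, leaving out control replicate 2 gave 0.33, and with pan-germ cell scaling it was 0.44 against 0.25. The groups did not overlap for 7 of the 10 genes, 5 higher and 2 lower, which was also true of 59.1% of all tested genes (30.5% higher and 28.6% lower). The 10 genes together took 0.149% and 0.151% of the reads in control libraries and 0.174% and 0.161% in *Cnot3*-cKO libraries. With 2 libraries against 2, the smallest two-sided p of an exact permutation test on a single gene is 0.333, and each adjusted p therefore rests on the dispersion fitted across genes.

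**Figure D1:**
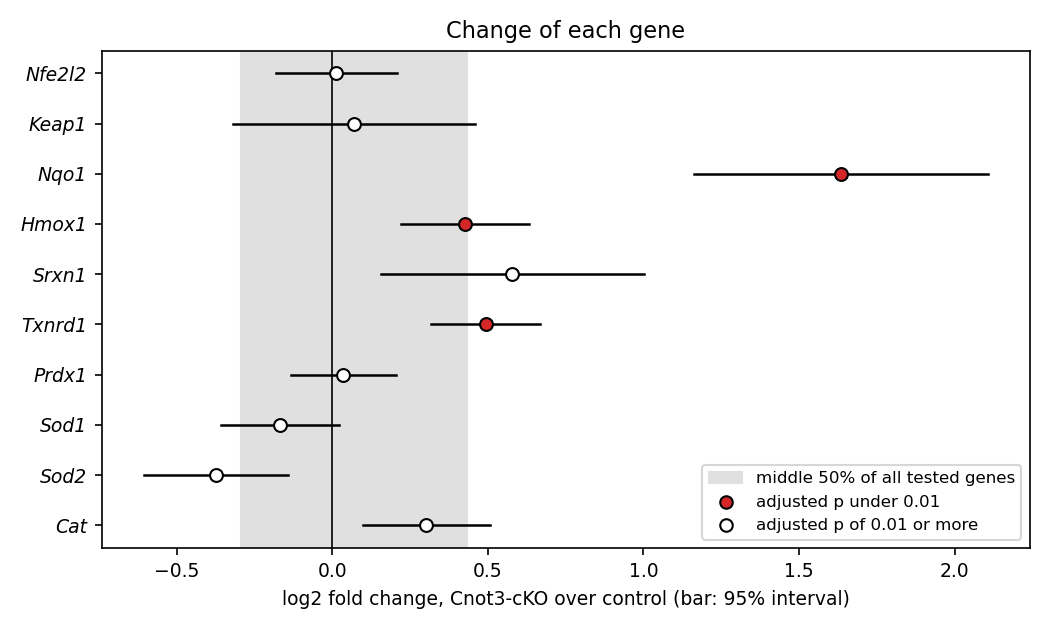
Log2 fold change of each gene in *Cnot3*-cKO over control cells (points) with its 95% interval (bars) from edgeR, and the range that holds the middle 50% of all tested genes (grey, -0.29 to 0.43). Filled points mark the 3 genes with an adjusted p under 0.01, of which *Nqo1* at 1.63 lies apart from the other 9.

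Levels of different genes were compared per kilobase of annotated exon. *Prdx1*, a peroxiredoxin that reduces hydrogen peroxide with electrons from thioredoxin, was the most abundant of the 10 in control cells at 241 ± 5.90 CPM per kb (SD, n = 2), above 99.5% of tested genes. It alone made up 45.2% to 47.9% of the reads of the 10 genes in the 4 libraries. *Sod1*, the cytosolic copper-zinc superoxide dismutase, followed at 68.3 ± 0.530 CPM per kb, then *Hmox1* at 54.9 ± 1.76, *Cat* at 30.2 ± 1.57, *Nfe2l2* at 27.5 ± 0.576 and *Txnrd1* at 22.4 ± 0.106 CPM per kb. The remaining genes were lower, with *Sod2* at 6.42 ± 0.318, *Keap1* at 3.68 ± 0.871, *Srxn1* at 3.50 ± 0.787 and *Nqo1* at 2.33 ± 0.304 CPM per kb. *Keap1* and *Srxn1* overlapped between the control libraries, and the other neighbours in this order did not. In *Cnot3*-cKO cells *Nqo1* moved from rank 10 to rank 7 at 7.22 ± 0.406 CPM per kb, *Hmox1* (73.8 ± 6.16) stood above *Sod1* (60.9 ± 5.75), *Txnrd1* (31.5 ± 0.848) stood above *Nfe2l2* (27.8 ± 0.689), and *Srxn1* (5.23 ± 0.110) and *Sod2* (4.96 ± 0.287) overlapped. Exons of all annotated transcripts were merged for the length, so a gene with long rarely used exons, such as *Sod2* with 10008 bases, appears lower per kb than its main transcript would.

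**Figure D2:**
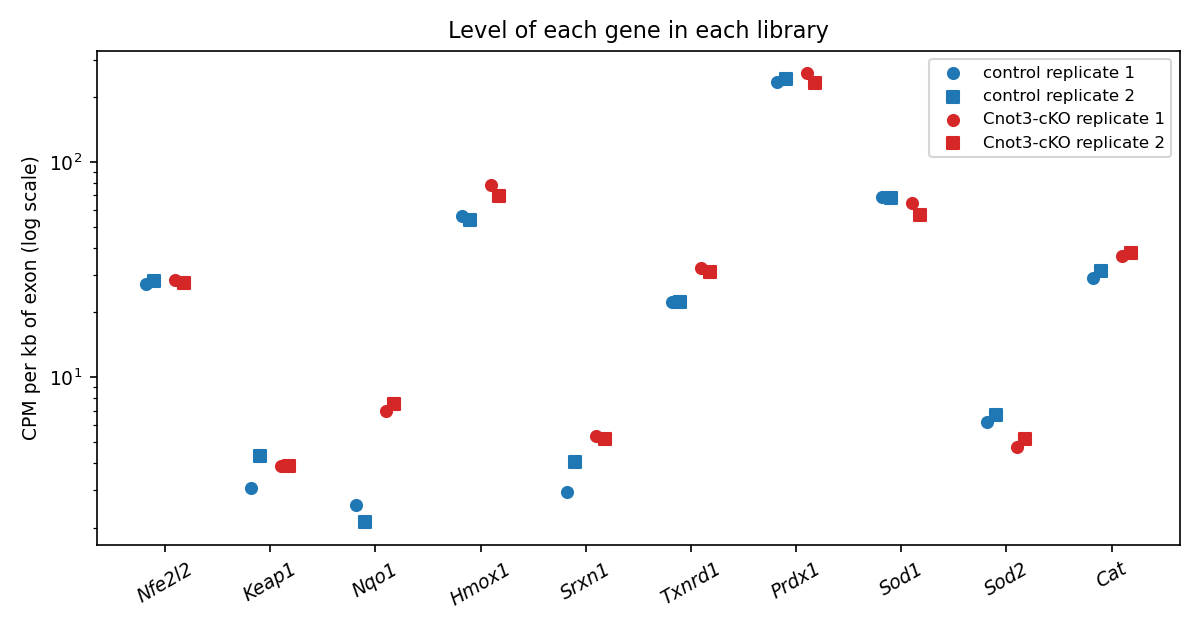
Level of each gene in each of the 4 libraries as CPM per kb of merged exon on a log scale, with control libraries in blue and *Cnot3*-cKO libraries in red (circles replicate 1, squares replicate 2). *Prdx1* is highest in every library, and *Nqo1* shows the widest gap between the groups.

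*Nfe2l2* lies on chromosome 2 (GRCm38, 75675513 to 75704641, reverse strand). It was at 103 and 106 CPM in the control libraries and at 107 and 104 CPM in the *Cnot3*-cKO libraries. The groups overlapped, and the log2 fold change was 0.01 (SE 0.09, 95% interval -0.18 to 0.21, adjusted p = 0.941). The interval runs from 0.883 to 1.15 times the level of controls. Scaling to the pan-germ cell genes gave 0.26, which lies above this interval and did not pass (adjusted p = 0.0779). Under that scaling the median log2 fold change of all tested genes was 0.25. *Keap1* lies on the reverse strand of chromosome 9, from 21229730 to 21239361, and was at 14.4 and 20.2 CPM in controls and at 18.2 and 18.1 CPM in *Cnot3*-cKO libraries. Both *Cnot3*-cKO values lay between the control values, and the log2 fold change was 0.07 (SE 0.18, 95% interval -0.32 to 0.46, adjusted p = 0.838). The control libraries differed from each other by 0.49 on the log2 scale, and leaving out control replicate 1 gave -0.17, while leaving out control replicate 2 gave 0.32, as did scaling to the pan-germ cell genes (adjusted p = 0.207). Without scaling between libraries, *Nfe2l2* had 7.16 and 5.26 reads for each read of *Keap1* in controls and 5.90 and 5.73 in *Cnot3*-cKO libraries, so this ratio also overlapped. The exons of *Keap1* share 510 bases with *Gm16754*, an antisense gene with 45 to 90 reads a library, and the strand setting of the counting is not stated.

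*Nqo1* encodes NAD(P)H quinone dehydrogenase 1, which reduces quinones by a pair of electrons at once and is a standard readout of NRF2 activity. It lies on the reverse strand of chromosome 8, from 107388225 to 107403206, and no other annotated gene overlaps it. Control libraries held 159 and 138 *Nqo1* reads and *Cnot3*-cKO libraries 244 and 334, although the latter libraries were smaller. *Nqo1* was at 3.95 and 3.28 CPM in controls and at 10.8 and 11.7 CPM in *Cnot3*-cKO libraries. Both *Cnot3*-cKO values were far above both control values, with a log2 fold change of 1.63 (SE 0.22, 95% interval 1.16 to 2.11, adjusted p = 2.97e-04). Of all tested genes, 96.1% had a lower log2 fold change. Leaving out 1 library at a time gave 1.49 to 1.76, and *Nqo1* stayed called each time.

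*Hmox1* encodes heme oxygenase 1, which breaks heme down to biliverdin, carbon monoxide and iron, and it is induced by heme, by oxidants and in macrophages. It lies on the forward strand of chromosome 8, from 75093621 to 75100589. It was at 98.2 and 93.9 CPM in controls and at 137 and 122 CPM in *Cnot3*-cKO libraries. The groups did not overlap, and the log2 fold change was 0.43 (SE 0.09, adjusted p = 0.00710). Without *Cnot3*-cKO replicate 1, the higher library, it was 0.33 and no longer passed (adjusted p = 0.136). *Hmox2*, the constitutive heme oxygenase, was at 66.2 and 65.1 CPM in controls and 51.4 and 53.4 CPM in *Cnot3*-cKO libraries, a log2 fold change of -0.33 that did not pass (adjusted p = 0.0394). Within each library, *Hmox1* had 1.48 and 1.44 reads for each *Hmox2* read in controls against 2.66 and 2.28 in *Cnot3*-cKO cells. The ratio of *Hmox1* to *Nqo1* reads went the other way, from 24.9 and 28.6 in controls to 12.7 and 10.4.

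The genes of the thioredoxin and peroxiredoxin cycle differed among themselves. *Txnrd1* encodes the cytosolic thioredoxin reductase, a selenoprotein that passes electrons from NADPH to thioredoxin, and lies on the forward strand of chromosome 10, from 82833951 to 82897712. It was at 159 and 158 CPM in controls and at 227 and 219 CPM in *Cnot3*-cKO libraries. The groups were well apart, and the log2 fold change was 0.49 (SE 0.08, adjusted p = 0.00121). Without *Cnot3*-cKO replicate 1 the value was close to this at 0.46 but did not pass (adjusted p = 0.0147). The gene has several start sites and 8 annotated transcripts, which counts per gene do not separate.

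*Srxn1* encodes sulfiredoxin, which repairs overoxidized peroxiredoxins, and lies on the forward strand of chromosome 2, from 152105516 to 152111376. It was at 8.29 and 11.4 CPM in controls and at 15.0 and 14.5 CPM in *Cnot3*-cKO libraries. Both *Cnot3*-cKO values were higher, but the control libraries differed by 0.46 on the log2 scale, and the log2 fold change of 0.58 (SE 0.19) missed the threshold (adjusted p = 0.0536), with a 95% interval of 1.11 to 2.003 times the control level. It was 0.82 and passed without control replicate 2 (adjusted p = 0.00299), and it was 0.35 without control replicate 1. *Prdx1* lies on the forward strand of chromosome 4, from 116685544 to 116700822. It was at 720 and 745 CPM in controls and at 789 and 713 CPM in *Cnot3*-cKO libraries, so the groups overlapped. Its log2 fold change was 0.04 (SE 0.08, adjusted p = 0.811), and the 95% interval runs from 0.911 to 1.15 times the control level. With pan-germ cell scaling it was 0.28, above this interval, and did not pass (adjusted p = 0.0520), while the median of all tested genes was then 0.25. Relative to *Prdx1* within each library, *Txnrd1* had 0.221 and 0.212 reads per *Prdx1* read in controls against 0.288 and 0.307 in *Cnot3*-cKO cells. The same ratio for *Srxn1* was 0.0115 and 0.0153 in controls against 0.0190 and 0.0204 in *Cnot3*-cKO cells. A *Prdx1* pseudogene, *Prdx1-ps*, was listed at 0 reads in every library, and the treatment of reads that match several places is not stated.

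None of the 3 genes for removal of superoxide and peroxide by metal enzymes passed, and they did not lie on the same side. *Sod1* lies on the forward strand of chromosome 16, from 90220754 to 90226329, and was at 273 and 270 CPM in controls and at 258 and 225 CPM in *Cnot3*-cKO libraries. The *Cnot3*-cKO values were both lower, with a log2 fold change of -0.17 (SE 0.09, 95% interval -0.36 to 0.02, adjusted p = 0.209), which turned to 0.08 with scaling to the pan-germ cell genes. *Sod2* encodes the manganese superoxide dismutase of mitochondria and lies on the forward strand of chromosome 17, from 13006846 to 13040063. It was at 62.0 and 66.6 CPM in controls and at 47.6 and 51.6 CPM in *Cnot3*-cKO libraries. The groups did not overlap, and its log2 fold change of -0.37 (SE 0.11, 95% interval -0.61 to -0.14) was the lowest of the 10 genes but did not pass (adjusted p = 0.0263). It was -0.44 and passed without control replicate 1 (adjusted p = 0.00246). *Cat*, which encodes the peroxisomal catalase, lies on the reverse strand of chromosome 2, from 103453849 to 103485160. It was at 76.0 and 81.8 CPM in controls and at 95.3 and 99.3 CPM in *Cnot3*-cKO libraries. Both *Cnot3*-cKO values were higher, and the log2 fold change of 0.30 (SE 0.09, 95% interval 0.10 to 0.51) did not pass (adjusted p = 0.0387). Without control replicate 2 it was 0.35 and passed (adjusted p = 0.00945). Within each library *Cat* had 0.278 and 0.303 reads per *Sod1* read in controls against 0.370 and 0.440 in *Cnot3*-cKO cells, while the ratio of *Sod1* to *Sod2* overlapped (4.40 and 4.05 against 5.42 and 4.37).

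Markers of some other testis cells were also higher in *Cnot3*-cKO libraries. ID4-EGFP sorting is meant to keep germ cells. Yet 14 of 15 Sertoli cell markers, 5 of 6 tested Leydig cell markers and 8 of 10 macrophage markers passed as higher in *Cnot3*-cKO libraries. The shares among all tested genes were 6.21% higher and 4.70% lower. The 15 Sertoli cell markers summed to 455 and 458 CPM in controls and to 1433 and 1427 CPM in *Cnot3*-cKO libraries, led by *Clu* at 145 to 479 CPM, with *Sox9* at 3.80 and 3.64 against 18.8 and 16.1 CPM and *Amhr2* at 8.22 and 9.32 against 34.7 and 34.9 CPM. The 7 Leydig cell markers summed to 368 and 323 against 831 and 897 CPM, led by *Hsd3b1*, while *Insl3* was at 0 in every library. The 10 macrophage markers summed to 270 and 177 against 594 and 485 CPM, led by *Mrc1*, with *Adgre1* at 19.5 and 13.1 against 36.3 and 31.9 CPM and *Csf1r* at 40.8 and 25.3 against 84.3 and 69.1 CPM. Peritubular myoid cell markers (6 genes, 13.9 and 16.5 against 20.4 and 25.7 CPM), endothelial cell markers (7 genes, 31.2 and 30.2 against 42.7 and 51.3 CPM, with *Ly6c1* and *Emcn* under the test's filter) and erythroid cell markers (6 genes, 8.14 and 7.75 against 10.1 and 19.4 CPM) were scarcer, led by *Acta2*, *Tek* and *Hbb-bs* in turn. In these 3 lists, 1 of 6 myoid, 2 of 5 tested endothelial and 0 of 5 tested erythroid markers passed as higher. The 11 pan-germ cell genes summed to 6115 and 6484 CPM in controls and 5463 and 5674 CPM in *Cnot3*-cKO libraries. Among the 11, 4 passed as lower. The 8 markers of undifferentiated spermatogonia summed to 1164 and 1050 against 1008 and 1046 CPM, and 3 passed as higher and 2 as lower. The most abundant, *Zbtb16*, fell from 436 and 364 to 243 and 212 CPM (-0.82, adjusted p = 1.93e-04), and *Sall4*, named after its values were seen, also fell (-0.42). *Gfra1* (0.90) and *Etv5* (0.54) rose, as did *Id4*, and *Lhx1* did not pass (0.11). In a sorted bulk sample, more cells of a type and more RNA per cell cannot be told apart.

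**Figure D3:**
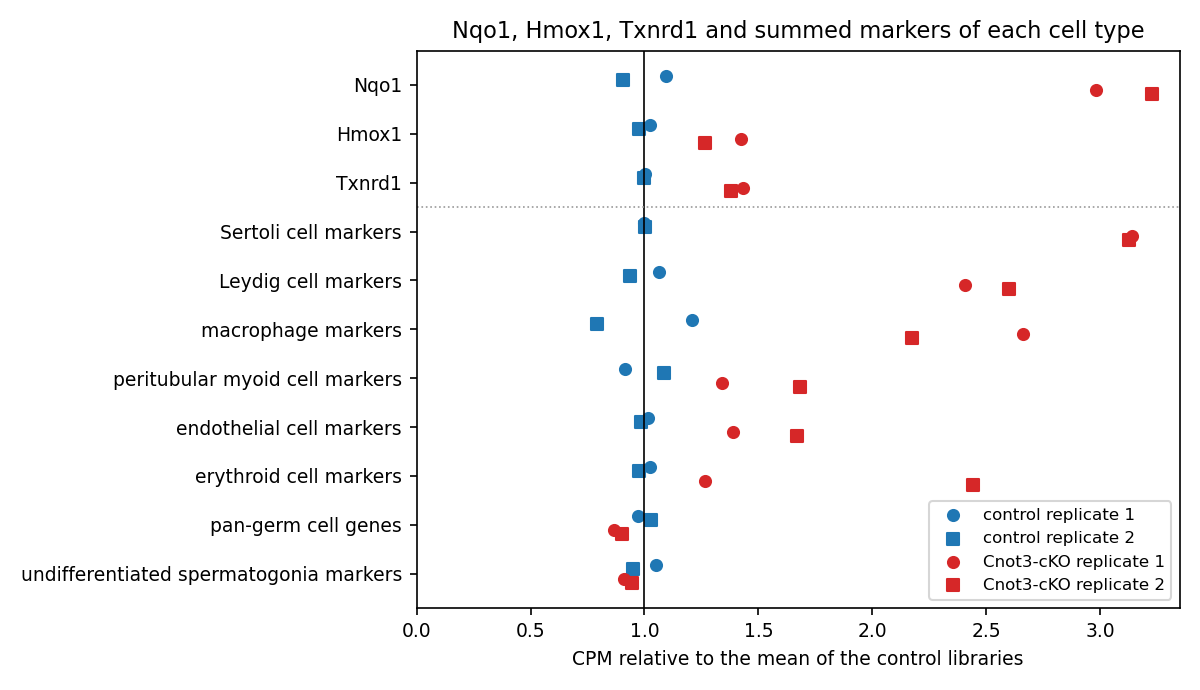
*Nqo1*, *Hmox1* and *Txnrd1* and the summed CPM of each marker list in every library, relative to the mean of the control libraries (blue, control; red, *Cnot3*-cKO; circles replicate 1, squares replicate 2). The Sertoli cell markers lie at 3.14 and 3.13 in *Cnot3*-cKO libraries with *Nqo1* beside them, while *Hmox1* and *Txnrd1* lie below the Sertoli, Leydig and macrophage sums.

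After these values were seen, each of the 3 genes that passed was set against the marker reads of its own library. For every 1000 reads of the 15 Sertoli cell markers, there were 8.67 and 7.16 *Nqo1* reads in controls against 7.52 and 8.17 in *Cnot3*-cKO libraries, so on this scale the groups overlapped. For every 1000 reads of the pan-germ cell genes, there were 0.646 and 0.506 *Nqo1* reads in controls against 1.97 and 2.06 in *Cnot3*-cKO libraries. *Nqo1* also overlapped between the groups per 1000 macrophage marker reads (14.6 and 18.5 against 18.1 and 24.02) and was higher in *Cnot3*-cKO libraries per 1000 Leydig cell marker reads (10.7 and 10.2 against 13.0 and 13.0). *Hmox1* and *Txnrd1* rose less than these markers. Per 1000 macrophage marker reads, *Hmox1* went from 364 and 531 to 230.3 and 250.4 reads, and per 1000 Sertoli cell marker reads *Txnrd1* went from 349 and 345 to 159 and 153. Per 1000 reads of the pan-germ cell genes both were higher in *Cnot3*-cKO libraries, at 25.04 and 21.4 against 16.1 and 14.5 for *Hmox1* and at 41.6 and 38.6 against 26.01 and 24.4 for *Txnrd1*. The pan-germ cell scaling used in the test is a different one, since it averages the log2 counts of the 11 genes instead of summing their reads. It moved the median log2 fold change of all tested genes from 0.01 to 0.25. How many of all tested genes were higher in both *Cnot3*-cKO libraries per 1000 pan-germ cell reads was not counted. Per 1000 pan-germ cell reads, 5 more of the 10 genes were higher in both *Cnot3*-cKO libraries. The pan-germ cell sum itself was lower there (6115 and 6484 CPM in controls against 5463 and 5674 CPM), which raises any gene on this scale. The 5 genes were *Cat* (12.4 and 12.6 against 17.4 and 17.5), *Srxn1* (1.36 and 1.76 against 2.74 and 2.56) and the 3 genes whose CPM overlapped, namely *Nfe2l2* (16.8 and 16.3 against 19.6 and 18.3), *Keap1* (2.35 and 3.11 against 3.33 and 3.19) and *Prdx1* (118 and 115 against 144 and 126). *Sod2* was lower (10.1 and 10.3 against 8.71 and 9.10) and *Sod1* overlapped. The part of other cells in the changes of *Nqo1*, *Hmox1* and *Txnrd1* was not tested.

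Other genes of the pathway were taken from lists of related genes. Scaling to pan-germ cell genes shifted the median log2 fold change of all tested genes from 0.01 to 0.25, so counts under it are given beside the main ones. In the main test 6.21% of all tested genes passed as higher and 4.70% as lower. The shares of all tested genes under pan-germ cell scaling were not counted, so the list counts under it have no such share beside them. Of 14 NRF2 regulators and partners, 0 passed as higher and 1 as lower (2 and 0 with pan-germ cell scaling), and their median was -0.19. The one that passed was *Nfe2l1*, which encodes the related factor NRF1. It was at 290.4 and 307 CPM in controls and 208 and 220.3 CPM in *Cnot3*-cKO libraries, a log2 fold change of -0.48 (SE 0.08, adjusted p = 0.00149), and it did not pass without *Cnot3*-cKO replicate 1 (-0.45, adjusted p = 0.0190) or with pan-germ cell scaling (-0.24, adjusted p = 0.0797). Without control replicate 2, 3 genes of this list passed as lower. *Sqstm1*, which encodes the KEAP1-binding autophagy receptor p62 and was chosen after its values were seen, was at 194 and 201 against 265 and 237 CPM (0.35, adjusted p = 0.0132), and it passed under 9 of 14 alternatives, with adjusted p from 4.22e-04 to 0.252 over all 14.

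Genes of NADPH supply, iron and detoxification that are known as NRF2 targets numbered 19. Of these, 7 passed as higher and 1 as lower, against 6.21% and 4.70% of all tested genes. With pan-germ cell scaling it was 8 and 0, and the median of the list in the main test was 0.34. The 4 called genes were *Tkt*, a pentose phosphate pathway enzyme (27.98 and 32.0 against 69.6 and 72.5 CPM, log2 fold change 1.24), *Me1*, the cytosolic malic enzyme that makes NADPH (75.5 and 70.1 against 159 and 171 CPM, 1.18), *Cbr3*, a carbonyl reductase (2.14 and 1.90 against 4.33 and 5.17 CPM, 1.24), and *Slc48a1*, a heme transporter (8.99 and 6.85 against 16.6 and 16.1 CPM, 1.04). *Slc48a1* passed under every alternative but was not called without control replicate 2 (0.85) or in DESeq2 with the prior on fold changes (0.92), nor was *Cbr3* in the latter (0.92). *Cbr3* did not pass without control replicate 2 (1.14, adjusted p = 0.0135) or without *Cnot3*-cKO replicate 2 (1.09, adjusted p = 0.0319), and without the latter library 4 genes of the list passed as higher. *Idh1* (0.56), *Ephx1* (0.73) and *Pir* (0.94) rose and *Abcc4*, an efflux transporter, fell (-0.66), all named after their values were seen. Of these, *Idh1* did not pass without *Cnot3*-cKO replicate 2, *Ephx1* without *Cnot3*-cKO replicate 1, *Pir* without control replicate 2 or *Cnot3*-cKO replicate 2, and *Abcc4* with pan-germ cell scaling (-0.42, adjusted p = 0.0124). Without control replicate 2, 3 genes of the list passed as lower. The oxidative enzymes of the pentose phosphate pathway did not pass, with *G6pdx* at 0.27 and *Pgd* at -0.30, nor did the ferritin subunits *Fth1* (-0.36) and *Ftl1* (0.36), also chosen after their values were seen.

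Of 13 other thioredoxin and peroxiredoxin genes, 3 passed as higher and 3 as lower, against 6.21% and 4.70% of all tested genes. With pan-germ cell scaling it was 4 and 1, and the median of the list in the main test was 0.05. The called gene was *Txn2*, the mitochondrial thioredoxin, which fell from 41.2 and 29.9 to 17.8 and 14.1 CPM (log2 fold change -1.16, SE 0.18, adjusted p = 7.82e-04). *Txn2* passed under every alternative, but its fold was under 2 without control replicate 1 (-0.92), without *Cnot3*-cKO replicate 2 (-0.998) and with pan-germ cell scaling (-0.92), so it was not called there. *Prdx3*, the mitochondrial peroxiredoxin that *Txn2* serves, rose from 32.5 and 30.6 to 50.8 and 45.0 CPM (0.60, adjusted p = 0.00398), so these mitochondrial partners moved in opposite directions. *Prdx3*, like *Prdx2* (0.50), *Txnip* (0.39), *Txnrd3* (-0.46) and *Sesn3* (-0.61), which also passed, was named after its values were seen. Without *Cnot3*-cKO replicate 1 none of the 3 higher genes passed, without *Cnot3*-cKO replicate 2 only 1 higher and 1 lower gene did, and without control replicate 1 *Prdx2* did not (0.37, adjusted p = 0.0106) while 5 genes passed as lower.

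Of 12 other superoxide, heme and protein repair genes, 3 passed as higher and 1 as lower, against 6.21% and 4.70% of all tested genes. With pan-germ cell scaling it was 3 and 0, and the median of the list in the main test was 0.34. The called genes were *Msrb3*, a methionine sulfoxide reductase (8.29 and 8.82 against 27.0 and 25.3 CPM, log2 fold change 1.61, adjusted p = 3.27e-05), and *Pon2*, a paraoxonase (4.72 and 3.11 against 8.78 and 8.94 CPM, 1.18, adjusted p = 0.00529), which did not pass without control replicate 2 (0.90, adjusted p = 0.0105) and was under 2-fold in DESeq2 with the prior (0.97). *Nqo2*, the paralog of *Nqo1*, rose from 8.52 and 8.79 to 14.5 and 15.3 CPM (0.78, adjusted p = 0.00732) and *Oxr1* fell (-0.42), both named after their values were seen, and neither passed when *Cnot3*-cKO replicate 1 or replicate 2 was left out. Without control replicate 1, 2 genes of this list passed as lower. Of 14 tested genes for enzymes that make superoxide or hydrogen peroxide, 4 passed as higher and 0 as lower, beside the same shares of all tested genes. With pan-germ cell scaling it was 5 and 0, and the median of the list in the main test was 0.23. *Cybb* (7.95 and 5.25 against 27.1 and 14.6 CPM, 1.66) and *Ncf1* (2.88 and 1.90 against 9.004 and 5.90 CPM, 1.64), subunits of the phagocyte NADPH oxidase, and *Aox1*, aldehyde oxidase (4.57 and 3.14 against 8.87 and 10.2 CPM, 1.31), were called, and *Maoa* (0.76), named after its values were seen, also rose but did not pass without *Cnot3*-cKO replicate 2 (0.59, adjusted p = 0.0873). *Cybb* and *Ncf1* are genes of phagocytes, the macrophage markers above were also higher in both *Cnot3*-cKO libraries, and their part in these changes was not tested. *Xdh*, xanthine dehydrogenase, was at 2.96 and 2.07 against 6.40 and 4.68 CPM and did not pass (1.14, SE 0.29, adjusted p = 0.0152). It passed under 6 of 14 alternatives, among them those without control replicate 1 (1.40) and without *Cnot3*-cKO replicate 2 (1.35). Its log2 fold change over all 14 was 0.86 to 1.40.

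**Figure D4:**
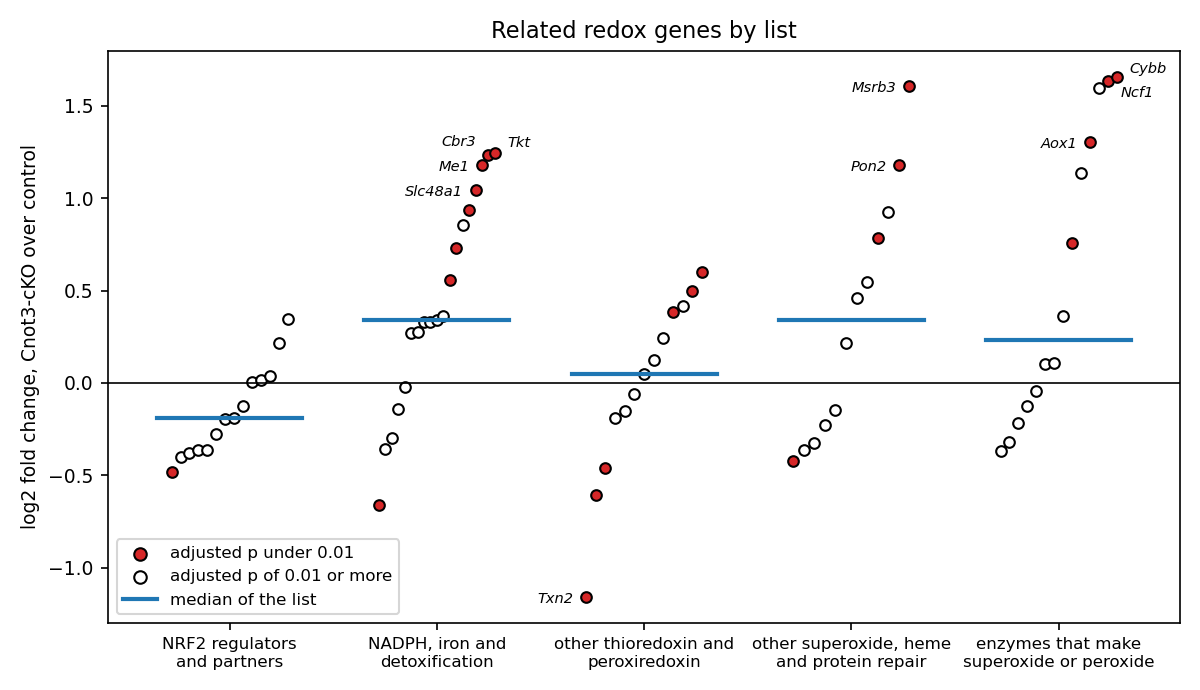
Log2 fold change of each tested gene of the 5 lists of related redox genes in *Cnot3*-cKO over control cells, ordered within each list, with filled points for an adjusted p under 0.01, a blue line at each list's median, and names for the called genes. The list of NRF2 regulators and partners has the lowest median, -0.19, and no called gene.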

How the data were processed

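The material was RNA-seq of sorted ID4-EGFP+ spermatogonia, 2 libraries for each genotype. The authors sequenced total RNA (TruSeq Stranded kit, NextSeq), dropped reads of mean Phred quality under 20, mapped the rest with STAR (mm10) and assigned them to GENCODE genes with featureCounts. The deposited values are raw counts per gene symbol, not normalized. Options for strand and for reads matching several genes are not given in the sources used here.

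Counts were tested with edgeR 4.0.16 in R 4.3.3 (TMM scaling, default expression filter, quasi-likelihood F test, no covariates). Benjamini-Hochberg adjustment covered all 23952 tested genes. Standard errors and 95% intervals come from the same fit. A gene passed at an adjusted p under 0.01, and was called with a fold change above 2. DESeq2, the tool of the study, was run as an alternative in version 1.42.0. Coordinates and exon lengths were read from GENCODE M21 (GRCm38, equal to mm10) and promoter sequences from RefSeq. The genes and lists were chosen with earlier results of these data known. All 10 genes and *Cnot3* were named. In each list of related genes, called genes were named (at most 4), or up to 2 that passed where none was called, and *Xdh*. In marker lists, the gene with the highest mean level over the groups and the markers the study uses were named. The alternatives were other scalings, filters, tests and thresholds, a replicate block and leaving out each library. The procedure was also run on counts simulated from the dispersion fitted to these data, which cannot test whether that dispersion holds. Figures were drawn with matplotlib 3.10.9.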

Additional observations from a re-analysis of the deposited data

How the results depend on the processing

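Under all 14 alternatives *Nqo1* stayed called (log2 fold change 1.40 to 1.87) and *Cnot3* stayed lower (-1.59 to -1.24). *Hmox1* (0.33 to 0.67) and *Txnrd1* (0.46 to 0.74) kept their direction under all 14 and stopped passing only without *Cnot3*-cKO replicate 1. The number of the 10 genes that passed as higher was 3. It was 4 at an adjusted p under 0.05 and 5 with scaling to pan-germ cell genes, and it also moved when some single libraries were left out. How many of all tested genes passed under that scaling was not counted, so the counts under it, here and for the lists, have no such share beside them. The number of the 10 genes that passed as lower was 0, and was 1 (*Sod2*) with no filter and at an adjusted p under 0.05. It also moved when control replicate 1 was left out. With pan-germ cell scaling the median over tested genes became 0.25, *Sod1* turned to 0.077, *Sod2* was -0.13, *Srxn1* (0.83) and *Cat* (0.55) passed, and *Nfe2l2* (0.26), *Keap1* (0.32) and *Prdx1* (0.28) did not. *Nfe2l2* turned to -0.015 with no filter and to -0.012 in DESeq2 with and without the prior, and ranged from -0.023 to 0.034 without 1 library. *Prdx1* ranged from -0.049 to 0.10 and *Keap1* from -0.17 to 0.32 without 1 library. Over the alternatives, the genes that passed as higher and lower numbered 0 to 2 and 0 to 3 among NRF2 regulators, 4 to 8 and 0 to 3 among NADPH, iron and detoxification genes, 0 to 4 and 1 to 5 among thioredoxin and peroxiredoxin genes, 2 to 4 and 0 to 2 among superoxide, heme and repair genes, and 4 to 5 and 0 to 1 among enzymes that make superoxide or peroxide. With pan-germ cell scaling the counts in these lists, higher and lower, were 2 and 0, 8 and 0, 4 and 1, 3 and 0, and 5 and 0. For these changes the cause was not tested. Whether libraries with equal replicate numbers were paired is not given. The correlation of their deviations was 0.0585 over 18050 genes, which cannot decide it with 2 libraries per group. With the replicate block 3 of the 10 genes passed as higher and 0 as lower.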
